A study of Mus musculus with 8 samples.

Results

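Expression of 10 genes of eicosanoid synthesis was followed in macrophages of wild-type and Men1 knockout mice. The 10 members were taken by gene symbol from the 54532 rows of the deposited count table. Ptgs1, Ptgs2, Ptges and Hpgds are on the route to prostaglandins, and Alox5ap, Alox5, Lta4h, Ltc4s and Alox15 on the lipoxygenase route. Pla2g4a supplies both routes and was counted in neither branch. Each symbol had a single row, and all 10 rows passed the filter on low counts. Men1 encodes menin, a scaffold protein of histone methyltransferase complexes. The cells were macrophages taken from the mouse peritoneal cavity, and every animal, wild type or knockout, had received thioglycollate broth, an irritant that recruits leukocytes. Each title joins a letter (M or F, not spelled out), WT or KO for the genotype, and the number of the animal. M_WT had 3 libraries, named M_WT_5643, M_WT_6258 and M_WT_6255 here, M_KO also had 3, named M_KO_5944, M_KO_5645 and M_KO_5642, and F_WT_5638 and F_KO_5639 were single libraries. No strain, age, time after broth or means of deleting Men1 is stated in the labels.

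Eicosanoids are short-lived lipid mediators made from arachidonic acid, which cytosolic phospholipase A2 (Pla2g4a) releases from membranes. Cyclooxygenases (Ptgs1, constitutive, and Ptgs2, inducible by inflammatory stimuli) turn arachidonic acid into prostaglandin H2, from which terminal synthases make prostaglandin E2 (Ptges) or prostaglandin D2 (Hpgds). In the other branch, 5-lipoxygenase (Alox5) with its activating protein (Alox5ap) makes leukotriene A4, which Lta4h converts to the neutrophil attractant leukotriene B4 and Ltc4s to the cysteinyl leukotriene C4. Alox15 adds oxygen at another position of the fatty acid and is a known gene of resident peritoneal macrophages.

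Total counts ran from 18206427 to 22853583 per library, so that a count of 0 allows 0.120 to 0.170 CPM (counts scaled to library size with TMM factors). The lowest count of any member in any library was 43, for Hpgds in F_KO_5639. Men1 itself ranged over 17.1 to 25.7 CPM in M_WT and over 6.45 to 8.42 CPM in M_KO, with 18.1 CPM for F_WT and 11.7 CPM for F_KO. All 10 macrophage markers examined passed the filter, 6 lower and 4 higher in M_KO, with Lyz2 at 9063 to 20548 CPM. Of the other cell types listed, the eosinophil granule genes Epx and Prg2 had 0 counts in the 6 M libraries. The T cell gene Cd3e was at 0.27 CPM or less. Other markers of these lists were counted. Of the eosinophil markers 3 passed the filter, 2 lower and 1 higher in M_KO, and the list summed to 1.87 to 7.53 CPM in the M libraries. Of the T and NK cell markers 2 passed, each higher in M_KO, and that list summed to 2.99 to 18.0 CPM. None of these 2 lists held a tested gene without overlap. Summed B cell markers ran from 146.7 to 755.2 CPM, and all 8 were higher in M_KO, none without overlap. M_KO_5642 stood apart: it was the lowest of the 8 libraries for 6 of 10 members (Ptgs1, Ptgs2, Ptges, Pla2g4a, Alox5 and Alox15). Without it, the edgeR log2 fold changes of M_KO against M_WT of -1.81 for Ptgs2, -1.33 for Ptges, -0.64 for Pla2g4a, -0.24 for Ptgs1 and -0.13 for Alox5 were -1.35, -1.003, -0.47, -0.018 and -0.018. Dendritic cell markers were lower in M_KO for 4 of 5 tested (median log2 fold change -0.55), with Zbtb46 lower without overlap. Cd209a, under the edgeR filter, fell by DESeq2 (adjusted p = 0.0239), but it was at 0.098, 15.3 and 14.5 CPM in M_WT_5643, M_WT_6258 and M_WT_6255. The summed dendritic list ran from 32.6 to 81.5 CPM in M_WT and from 16.8 to 43.4 CPM in M_KO. Neutrophil markers were higher for 4 of 4 tested, with Mmp9 higher without overlap, and their sum, mostly Csf3r, ran from 210.9 to 401.9 CPM in M_WT and from 276.6 to 651.4 CPM in M_KO. Over all genes tested, 6.95% were lower and 9.09% higher in M_KO without overlap, and DESeq2 called 1.21%. The neutrophil gene Ly6g had at most 1 count in a library. The part of these cells in the levels of the enzyme genes was not tested. In bulk RNA, fewer cells of a type and less RNA per cell cannot be told apart.

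Of the prostaglandin branch, 3 of 4 genes had lower levels in every M_KO library than in any M_WT library, while the lipoxygenase branch lay near its M_WT level. M_KO lay below M_WT without overlap for Ptgs2, Ptges, Hpgds and Pla2g4a, which is 4 of 10 members, where 6.95% of the 13646 genes tested did so. Lta4h alone lay above M_WT without overlap, where 9.09% of genes did. None of these differences passed the genome-wide test. EdgeR's quasi-likelihood test called 0 members (background 0.0220%), with 4 at an unadjusted p under 0.05 (9.89% of all genes), and DESeq2 called 0 (background 1.21%). The median log2 fold change was -1.32 over the 4 cyclooxygenase branch genes and 0.12 over the 5 lipoxygenase branch genes, against 0.01 over all genes tested. The summed level of the 10 macrophage markers was also lower in M_KO without overlap, at 18172 to 20812 CPM against 21002 to 32278 CPM in M_WT, most of it Lyz2. Its part in the differences of the enzyme genes was not tested.

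**Figure D1:**
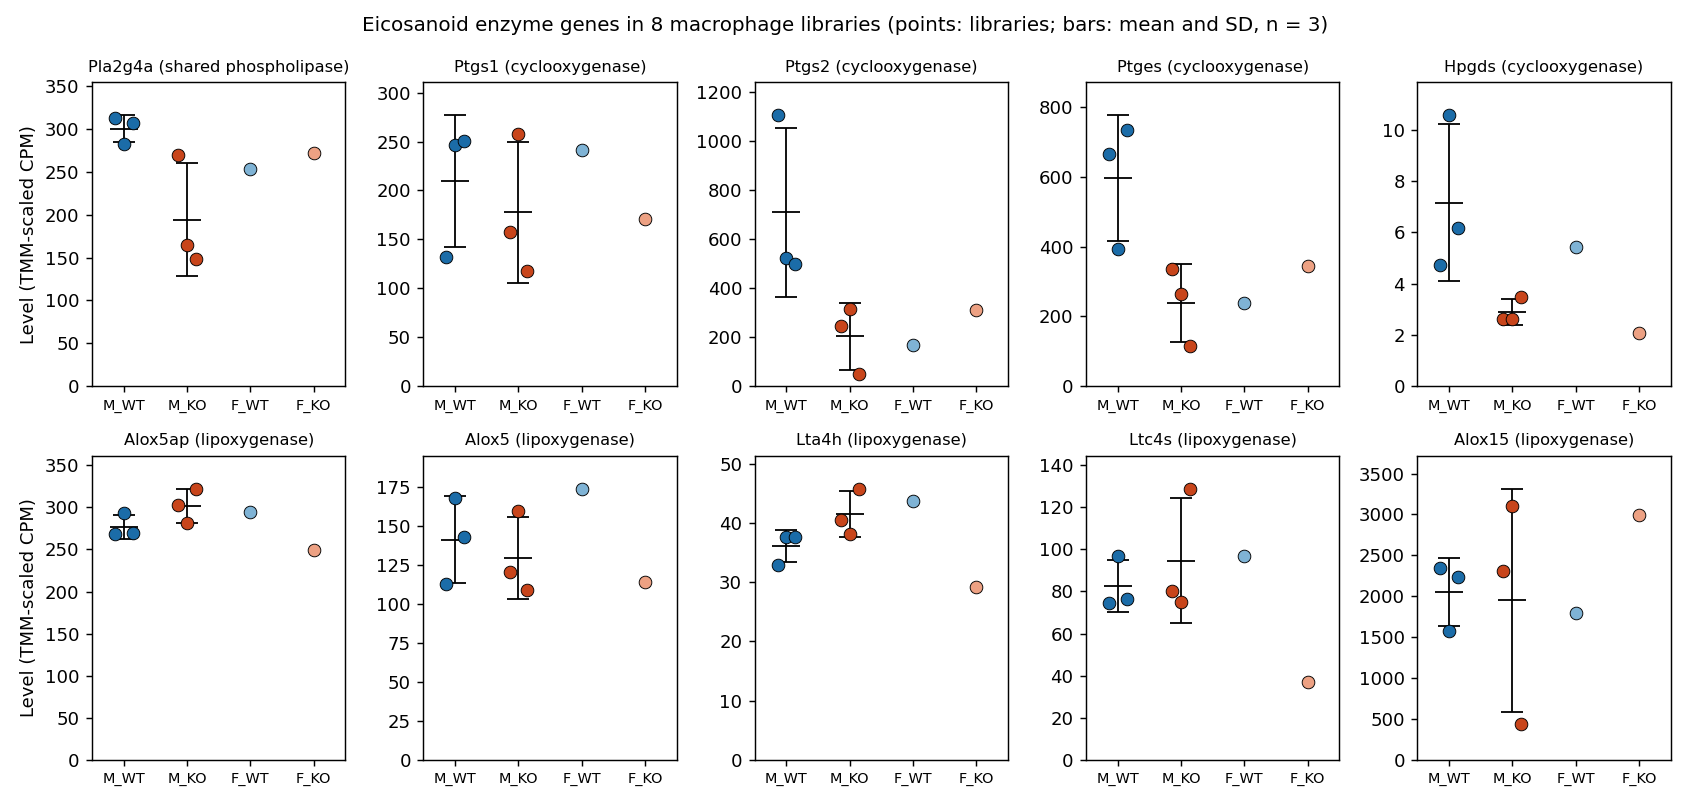
Level of each enzyme gene (y axis, TMM-scaled CPM, linear and starting at 0) in the M_WT, M_KO, F_WT and F_KO libraries (x axis), with points for libraries and bars for the mean and SD of 3 libraries. The M_KO points of Ptgs2, Ptges, Hpgds and Pla2g4a lie below all M_WT points, while those of Alox15 spread from 438.5 to 3104 CPM.

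Ptgs2, the inducible cyclooxygenase (ENSMUSG00000032487, GRCm38 chromosome 1, 150100031 to 150108227, plus strand), had the largest difference. It was at 1108, 524.5 and 497.1 CPM in M_WT_5643, M_WT_6258 and M_WT_6255, and at 245.6, 312.5 and 50.02 CPM in M_KO_5944, M_KO_5645 and M_KO_5642. Every M_KO library was below every M_WT library, with M_WT_5643 far above the others and M_KO_5642 far below. Means were 709.9 ± 345.2 and 202.7 ± 136.4 CPM (SD, n = 3 each), and the M_KO mean came to 28.6% of that in M_WT. The edgeR log2 fold change was -1.81 (SE 0.66, 95% interval -3.38 to -0.24, adjusted p = 0.460). It stayed negative without any single M library, from -2.27 without M_KO_5645 to -1.33 without M_WT_5643. The authors' deposited table gives a log2 fold change of -1.81 with an adjusted p of 0.0632, and DESeq2 gave an adjusted p of 0.0990 here.

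Ptges, the inducible prostaglandin E synthase (ENSMUSG00000050737, chromosome 2, 30889471 to 30929863, minus strand), acts just after Ptgs2. Its levels were 666.4, 393.2 and 733.8 CPM in M_WT_5643, M_WT_6258 and M_WT_6255, against 334.6, 263.5 and 116.0 CPM in M_KO_5944, M_KO_5645 and M_KO_5642. The groups did not overlap, and M_KO_5642 was again the lowest library. The means of 597.8 ± 180.4 and 238.0 ± 111.5 CPM (SD, n = 3 each) differed by a log2 fold change of -1.33 (SE 0.42, 95% interval -2.32 to -0.34, edgeR adjusted p = 0.450). In the authors' deposited table the adjusted p of Ptges is 0.0538, and DESeq2 gave 0.0765 here.

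The 250 bases upstream of the RefSeq starts of Ptgs2 and Ptges are printed because these genes had the largest differences and were low in the same libraries. Alox5 is printed beside them as the lipoxygenase whose level stayed near that of M_WT. RefSeq's table of promoters (GRCm38.p6) held 8 of the 10 members, without Alox5ap and Alox15. The RefSeq start of Ptges lies inside the longer gene model of the count table, so its window is not upstream of that model. Capitals mark matches to the motifs searched, and all sequences run 5′ to 3′ on the gene's own strand.
Ptgs2, chr1:150099781-150100030, plus strand: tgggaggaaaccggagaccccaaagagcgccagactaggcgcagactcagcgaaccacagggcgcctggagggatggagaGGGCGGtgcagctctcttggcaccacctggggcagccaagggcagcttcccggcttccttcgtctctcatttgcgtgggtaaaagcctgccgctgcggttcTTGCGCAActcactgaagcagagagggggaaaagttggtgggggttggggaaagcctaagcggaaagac
Ptges, chr2:30903298-30903547, minus strand: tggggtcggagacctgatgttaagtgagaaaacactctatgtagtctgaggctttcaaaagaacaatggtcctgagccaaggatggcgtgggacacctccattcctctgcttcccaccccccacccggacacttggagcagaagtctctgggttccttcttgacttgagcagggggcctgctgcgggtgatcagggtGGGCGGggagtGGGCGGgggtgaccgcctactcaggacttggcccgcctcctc
Alox5, chr6:116461179-116461428, minus strand: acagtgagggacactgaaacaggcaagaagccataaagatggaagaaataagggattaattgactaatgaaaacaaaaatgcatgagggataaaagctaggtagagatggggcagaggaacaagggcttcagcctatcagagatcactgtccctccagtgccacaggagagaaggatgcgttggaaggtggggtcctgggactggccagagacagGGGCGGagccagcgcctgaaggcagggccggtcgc

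The motifs, searched on both strands, were a TATA box (TATAAA), a cyclic AMP response element (TGACGTCA), an E-box (CACGTG), a GC box (GGGCGG), an AP-1 site (TGANTCA), a C/EBP palindrome (TTGCGCAA) and a kappaB consensus, none of which overlapped another in the printed windows. The Ptgs2 window held the C/EBP palindrome once, beginning 69 bases before the annotated start, and 54 of 32851 RefSeq promoters (0.164%) hold it. It also held a GC box at -170. The Ptges window held GC boxes at -53 and -42 and the Alox5 window a GC box at -35, where 32.7% of promoters hold at least 1. The TATA box (in 12.4% of promoters), the cyclic AMP response element (1.55%), the E-box (6.02%), the AP-1 site (6.75%) and the kappaB consensus (0.980%) were in none of these 3 windows. Each window ends at the annotated start, and bases past it were not searched, so a motif lying there would be missed. These are matches of letters in a fixed window, and RNA levels do not show whether a protein binds there. GC content was 61.6% in Ptgs2, 59.6% in Ptges and 52.8% in Alox5, against a median of 52.4% over all promoters.

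Hpgds, the prostaglandin D synthase of blood-derived cells (ENSMUSG00000029919, chromosome 6, 65117293 to 65144908), was the least abundant member. It was at 4.72, 10.6 and 6.18 CPM in M_WT_5643, M_WT_6258 and M_WT_6255 and at 2.60, 2.61 and 3.47 CPM in M_KO_5944, M_KO_5645 and M_KO_5642. The M_KO libraries were close together and below all M_WT libraries, while M_WT_6258 stood above the rest of its group. Mean levels of 7.17 ± 3.06 and 2.90 ± 0.50 CPM (SD, n = 3 each) gave a log2 fold change of -1.30 (SE 0.35, 95% interval -2.13 to -0.48, edgeR adjusted p = 0.412). DESeq2 gave an adjusted p of 0.0526, just above the threshold of 0.05, while the authors' deposited table gives 0.194. The adjusted p over the 16 alternatives ran from 0.0526 to 0.896. On log2(FPKM + 1) the difference was -0.53, a scale on which a gene near 1 FPKM is compressed. Mast cells also express Hpgds. Of 14 mast cell and basophil markers, 8 passed the filter, 3 lower and 5 higher in M_KO, and none without overlap. Cpa3 was at 0.15 to 2.21 CPM in M_WT and 0 to 2.89 CPM in M_KO, and Mcpt8 had 0 counts in every library. The summed list ran from 307.1 to 764.2 CPM in M_WT and from 102.8 to 615.6 CPM in M_KO, nearly all of it Hdc, which macrophages can express too. The part of such cells in the Hpgds level was not tested.

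Pla2g4a, which supplies both branches (ENSMUSG00000056220, chromosome 1, 149829618 to 149961290, minus strand), had a smaller difference. It stood at 312.7, 282.4 and 306.9 CPM in M_WT_5643, M_WT_6258 and M_WT_6255, and at 269.8, 164.6 and 148.2 CPM in M_KO_5944, M_KO_5645 and M_KO_5642. M_KO_5944 came close to the lowest M_WT library. Mean levels of 300.7 ± 16.1 and 194.2 ± 66.0 CPM (SD, n = 3 each) gave a log2 fold change of -0.64 (SE 0.23, 95% interval -1.19 to -0.08, edgeR adjusted p = 0.460). Without any single M library, the log2 fold change ran from -0.94 (without M_KO_5944, edgeR adjusted p = 0.107) to -0.47 (without M_KO_5642, edgeR adjusted p = 0.482). The range of the edgeR adjusted p over the 6 leave-outs was 0.107 to 0.896. With all 6 M libraries DESeq2 gave an adjusted p of 0.355, and the authors' deposited table gives 0.608. Pla2g4a and Ptgs2 are neighbours on chromosome 1, with 138740 bases between them. The 3 annotated genes in that gap were barely counted: Ptgs2os, a noncoding RNA gene on the minus strand beside Ptgs2, had 3 to 12 counts per library and the other two had 0.

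Ptgs1, the constitutive cyclooxygenase (ENSMUSG00000047250, chromosome 2, 36230426 to 36252272), did not share this pattern. It was at 131.8, 246.8 and 250.7 CPM in M_WT_5643, M_WT_6258 and M_WT_6255 and at 157.4, 257.9 and 117.7 CPM in M_KO_5944, M_KO_5645 and M_KO_5642. Low and high libraries occurred in both genotypes. The log2 fold change was -0.24 (SE 0.35, 95% interval -1.09 to 0.60, edgeR adjusted p = 0.847). Leaving out 1 library moved it from -0.62 (without M_KO_5645) to -0.018 (without M_KO_5642).

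The balance of the cyclooxygenases differed between libraries accordingly. Per unit of gene length, the ratio of Ptgs2 to Ptgs1 FPKM was 7.13, 1.80 and 1.68 in M_WT_5643, M_WT_6258 and M_WT_6255. In M_KO_5944, M_KO_5645 and M_KO_5642 it was 1.32, 1.03 and 0.360. The M_KO ratios lay below those of M_WT, although the gap between the nearest libraries was small beside the spread within M_WT. This ratio is taken within a library and does not depend on scaling between libraries. The ratio in F_WT_5638 was 0.590, below 2 of the 3 M_KO libraries, and in F_KO_5639 it was 1.55.

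In the lipoxygenase branch, no interval of a log2 fold change lay wholly on one side of 0. Alox5ap, the activating protein (ENSMUSG00000060063, chromosome 5, 149264767 to 149288153), was at 268.0, 292.9 and 269.3 CPM in M_WT_5643, M_WT_6258 and M_WT_6255. Its levels in M_KO_5944, M_KO_5645 and M_KO_5642 were 302.6, 281.3 and 322.1 CPM, which overlapped those of M_WT. The 95% interval of its log2 fold change ran from -0.14 to 0.38 around 0.12 (edgeR adjusted p = 0.741), the narrowest of the 10 members. An antisense gene overlaps Alox5ap, but it had at most 25 counts in a library, against at least 5219 for Alox5ap.

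Alox5, 5-lipoxygenase (ENSMUSG00000025701, chromosome 6, 116410077 to 116461178), was at 113.0, 168.2 and 142.6 CPM in M_WT_5643, M_WT_6258 and M_WT_6255. In M_KO_5944, M_KO_5645 and M_KO_5642 it was at 120.5, 159.3 and 108.8 CPM. The groups overlapped over most of their range, with a log2 fold change of -0.13 (SE 0.20, 95% interval -0.61 to 0.35, edgeR adjusted p = 0.859). Alox5 and Ptgs1 were high and low in much the same libraries: the ratio of Ptgs1 to Alox5 FPKM stayed between 1.14 and 1.86 over all 8 libraries. Over the same libraries the ratio of Ptgs2 to Alox5 FPKM ran from 0.412 in M_KO_5642 to 8.79 in M_WT_5643.

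Lta4h, leukotriene A4 hydrolase (ENSMUSG00000015889, chromosome 10, 93453411 to 93484875), was at 33.0, 37.65 and 37.67 CPM in M_WT_5643, M_WT_6258 and M_WT_6255. It was at 40.5, 38.3 and 45.9 CPM in M_KO_5944, M_KO_5645 and M_KO_5642. The groups were separate by a narrow gap, and the log2 fold change was 0.20 (SE 0.12, 95% interval -0.10 to 0.49, edgeR adjusted p = 0.622). Ltc4s, leukotriene C4 synthase (ENSMUSG00000020377, chromosome 11, 50236461 to 50238616), was at 74.7, 96.8 and 76.4 CPM in M_WT_5643, M_WT_6258 and M_WT_6255. It was at 80.0 and 75.2 CPM in M_KO_5944 and M_KO_5645 and at 128.9 CPM in M_KO_5642, so that a single library gave the higher M_KO mean. The log2 fold change was 0.19 (SE 0.23, 95% interval -0.35 to 0.73, edgeR adjusted p = 0.817) and -0.09 without M_KO_5642. An antisense gene over Ltc4s had 45 to 99 counts, against 774 to 3229 for Ltc4s. Whether reads were counted by strand is not stated, so reads of overlapping genes cannot be told apart.

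Alox15, the 12/15-lipoxygenase (ENSMUSG00000018924, chromosome 11, 70344152 to 70352031), was the most abundant member and the most variable in M_KO. It was at 2339, 1571 and 2232 CPM in M_WT_5643, M_WT_6258 and M_WT_6255. In M_KO_5944 and M_KO_5645 it was at 2303 and 3104 CPM, but in M_KO_5642 at 438.5 CPM. M_KO therefore held both the highest and the lowest M library. The means of 2047 ± 415.6 and 1948 ± 1367 CPM (SD, n = 3 each) gave a log2 fold change of -0.07 (SE 0.63, edgeR adjusted p = 0.979), with an interval from -1.57 to 1.42 that excludes little. Without M_KO_5642 it was 0.40, with an edgeR adjusted p of 0.589, the lowest over the 16 alternatives (highest 0.999).

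The level of Alox15 moved with the summed markers of resident large peritoneal macrophages, a list that does not hold Alox15. The summed level of its 12 genes was 13135, 9257 and 10210 CPM in M_WT_5643, M_WT_6258 and M_WT_6255, and 13501, 17132 and 5038 CPM in M_KO_5944, M_KO_5645 and M_KO_5642. In the F pair it was 7082 CPM in F_WT and 17041 CPM in F_KO, where Alox15 was at 1794 and 2994 CPM. The library lowest in Alox15 was thus lowest in the sum, and those highest in Alox15 were highest in the sum. Most of the sum was Prg4 and F5, and single markers did not all follow it. M_KO_5642 was the lowest of the 8 libraries for 8 of the 12, among them Timd4 at 61.0 CPM (194.1 to 586.2 CPM in the other 7 libraries). Lyve1 went the other way, at 301.3 CPM in M_KO_5642, its highest library, and 21.2 CPM in M_KO_5645, its lowest. Fcna was at 650.7 CPM in M_KO_5642 and 510.5 CPM in M_KO_5645, and Gata6 was lowest in M_KO_5642 (30.6 CPM) and next lowest in M_KO_5645 (43.3 CPM). Of the 12 markers, 5 were lower and 7 higher in M_KO. Vsig4 alone was lower without overlap (background 6.95%), with log2 fold change -1.44, edgeR adjusted p = 0.294 and DESeq2 adjusted p = 1.75e-05. The list held 0 genes higher without overlap (background 9.09%), and DESeq2 called 1 of the 12 (background 1.21%). The part of these cells in the level of Alox15 was not tested.

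**Figure D2:**
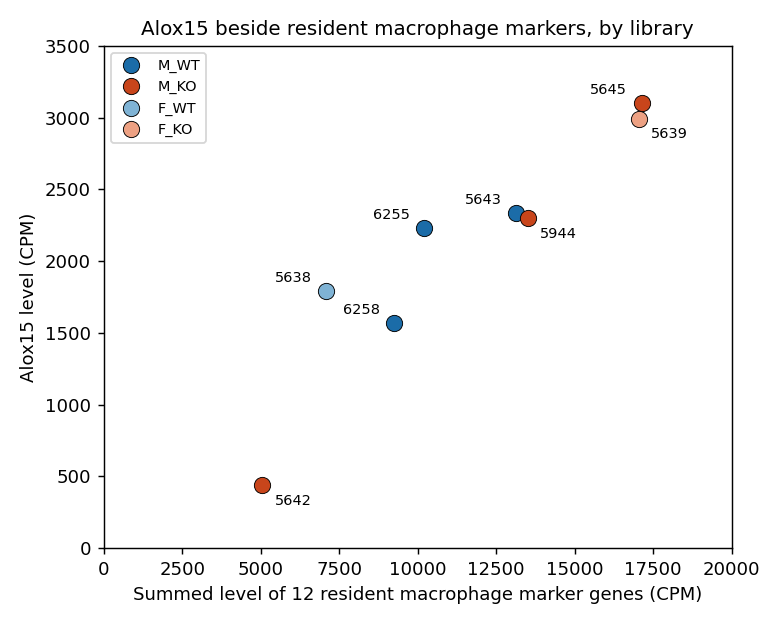
Alox15 level (y axis, CPM) against the summed level of 12 resident macrophage marker genes (x axis, CPM) in each of the 8 libraries, labelled by animal number and coloured by group, both axes linear. M_KO_5642 sits at 5038 and 438.5 CPM, and M_KO_5645 and F_KO_5639 sit together at the upper right.

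Levels between genes can be compared only per length. By mean FPKM in M_WT, the order was Alox15 (832.4 ± 168.5), Alox5ap (194.5 ± 10.3), Ptgs2 (154.9 ± 76.2), Ptges (151.6 ± 45.3), Ltc4s (81.3 ± 12.2), Ptgs1 (53.8 ± 17.1), Pla2g4a (46.9 ± 2.51), Alox5 (34.3 ± 6.68), Lta4h (5.90 ± 0.41) and Hpgds (1.11 ± 0.48; SD, n = 3). Among neighbours in this order, the ranges of Alox5ap and Ptgs2, of Ptgs2 and Ptges, and of Ptgs1 and Pla2g4a overlapped, and the other neighbours were separate in all 3 libraries. Alox15 ranked 42 of the 13646 tested genes by this measure, Ptgs2 300 and Hpgds 10308. In M_KO, Ptgs2 was at 43.9 ± 29.6 FPKM and Ptges at 60.0 ± 28.6 FPKM (SD, n = 3). Ltc4s was at 92.1 ± 27.9 FPKM there, above Ptgs2 in all 3 libraries but below Ptges in M_KO_5944, while Alox5ap was at 210.1 ± 12.99 FPKM. Ptges exceeded Hpgds by 54.6-fold to 275.2-fold per length in all 8 libraries. Ltc4s exceeded Lta4h by 7.62-fold to 16.9-fold.

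**Figure D3:**
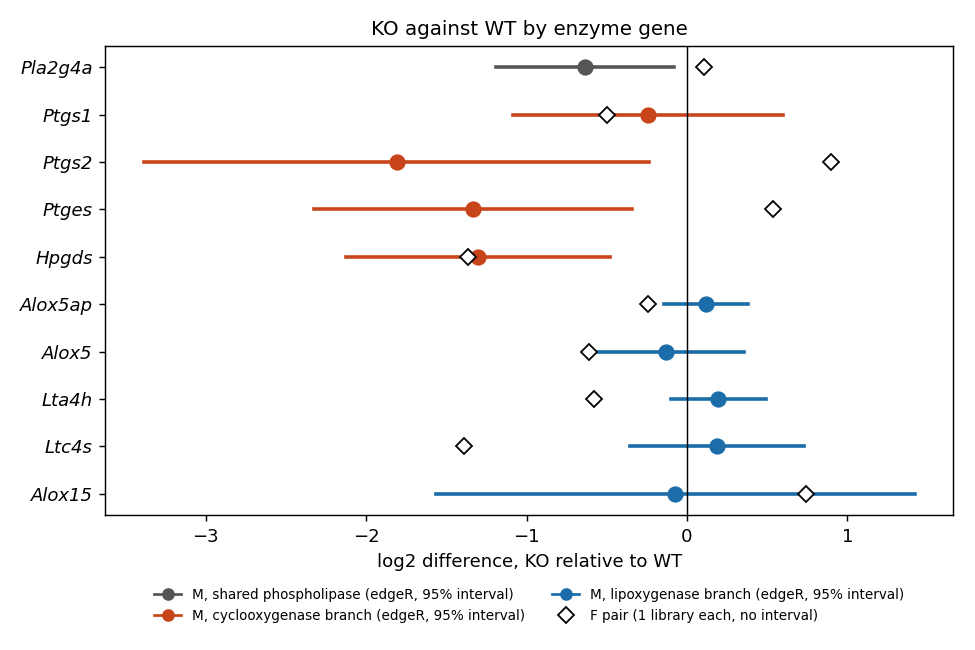
Log2 difference of KO relative to WT (x axis) for each enzyme gene (y axis), with circles and lines for the edgeR fold change and its 95% interval in the M libraries, coloured by branch, and open diamonds for the F pair, which has no replicate. The M intervals of Ptgs2, Ptges, Hpgds and Pla2g4a lie below 0, those of the 5 lipoxygenase branch genes span 0, and the diamonds of Ptgs2 and Ptges lie on the other side of 0, at 0.90 and 0.54.

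Averaged over its members, the cyclooxygenase branch (Ptgs1, Ptgs2, Ptges and Hpgds) stood apart from the lipoxygenase branch in every M_KO library. Relative to the M_WT mean of each gene, the mean log2 CPM of the cyclooxygenase branch was -0.98, -0.80 and -1.94 in M_KO_5944, M_KO_5645 and M_KO_5642. That of the lipoxygenase branch was 0.05, 0.16 and -0.27 in the same libraries. The lipoxygenase mean minus the cyclooxygenase mean was 1.03, 0.96 and 1.67 in M_KO, against -0.04, 0.05 and -0.01 in M_WT_5643, M_WT_6258 and M_WT_6255. The M groups did not overlap, and the difference of 1.22 was larger than the pooled SD between the M libraries of 0.28. In the F pair the same value was 0.98 in F_WT_5638 and 0.67 in F_KO_5639. A wild-type library thus lay within the M_KO range, so the contrast was not particular to knockout libraries. No p is given for this contrast, since the branches were chosen with results of these data known. The contrast was 0.94 without Ptgs2 and 1.55 without Ptgs1, and 0.99 to 1.35 without any single M library.

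**Figure D4:**
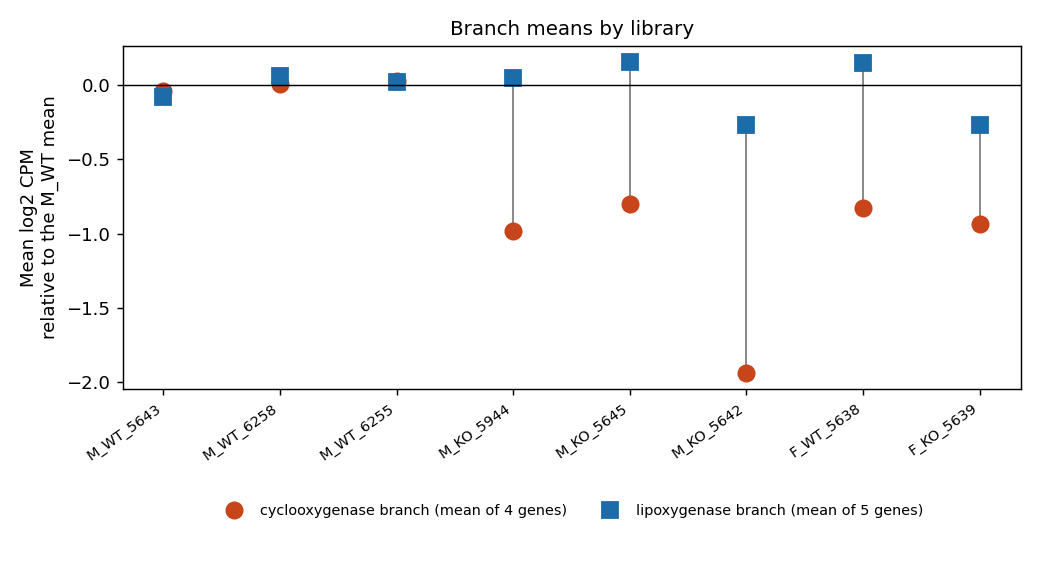
Mean log2 CPM relative to the M_WT mean (y axis) of the 4 cyclooxygenase branch genes (circles) and the 5 lipoxygenase branch genes (squares) in each library (x axis), joined by a line. The circles fall below the squares by 0.96 to 1.67 in the M_KO libraries and by 0.98 and 0.67 in F_WT_5638 and F_KO_5639.

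The F pair, with 1 library per genotype and so no replicate check, did not repeat the M pattern. Men1 also differed by less there: F_KO minus F_WT was log2 -0.63, against an edgeR log2 fold change of -1.49 in M. F_KO, at 11.7 CPM of Men1, lay above every M_KO library (6.45 to 8.42 CPM). The part of this in the levels of the enzyme genes was not tested. F_WT held 167.9 CPM of Ptgs2 and F_KO 312.4 CPM, giving a ratio of 1.86 with a 95% interval of 1.79 to 1.94 (exact Clopper-Pearson, for counting error alone). Ptges was at 238.2 and 345.6 CPM, a ratio of 1.45 (1.40 to 1.503), and Pla2g4a at 253.1 and 272.8 CPM, a ratio of 1.08 (1.04 to 1.118). F_WT was thus below every M_WT library for these 3 genes, at a level found in M_KO. Hpgds kept the sign of the M comparison: 5.43 CPM for F_WT, 2.05 CPM for F_KO and a ratio of 0.378 (0.261 to 0.538). The F_KO level of Hpgds was the lowest of the 8 libraries.

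In the lipoxygenase branch, Ltc4s went from 96.9 CPM (F_WT) to 36.9 CPM (F_KO), a ratio of 0.381 (0.351 to 0.414), and F_KO was well below the other 7 libraries. Lta4h, at 43.7 and 29.2 CPM, and Alox5, at 173.9 and 113.8 CPM, were also lower in F_KO. Alox5ap went from 295.0 to 249.1 CPM and Ptgs1 from 241.6 to 170.7 CPM. Alox15 was higher in F_KO. A test of whether the genotype difference itself differed between F and M, by the interaction term in edgeR, called 0 members (background 0.0218%). The smallest unadjusted p were 0.0119 for Ltc4s (log2 -1.56) and 0.0188 for Lta4h (log2 -0.76), each with an edgeR adjusted p of 0.948, and for Ptgs2 the interaction was 2.72 (SE 1.33, edgeR adjusted p = 0.948). The share of all genes with so small an unadjusted p in the interaction fit was not computed, so those 2 members have no background. With genotype and letter as terms for the 8 libraries, edgeR called 0 members (background 0.00727%). Hpgds was lower in 4 of 4 KO libraries than in any WT library. Its edgeR log2 fold change in that fit was -1.32 (SE 0.28, unadjusted p = 0.00177, edgeR adjusted p = 0.464). No other member had an unadjusted p under 0.05 in that fit. The shares of all genes that did either over the 8 libraries were not computed, so neither has a background. Ptgs2 was at -1.20 (SE 0.72) and Ptges at -0.88 (SE 0.46) there.

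Of 70 other eicosanoid pathway genes found in the table, 42 passed the filter. M_KO was higher for 28 of these and lower for 14, and their median log2 fold change was 0.26 against 0.01 over all genes. Without overlap, 9 were higher (background 9.09%) and 2 lower (background 6.95%). EdgeR called 0 of them (background 0.0220%), with 13 at an unadjusted p under 0.05 (background 9.89%), and DESeq2 called 3 (background 1.21%): Cysltr1, Daglb and Ptger4.

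Cysltr1, the receptor for cysteinyl leukotrienes, was at 25.7, 19.3 and 25.9 CPM in M_WT_5643, M_WT_6258 and M_WT_6255 and at 42.3, 42.7 and 47.6 CPM in M_KO_5944, M_KO_5645 and M_KO_5642. It rose by DESeq2 (adjusted p = 0.00293), with an edgeR log2 fold change of 0.90 (SE 0.15, adjusted p = 0.322), and in the F pair it differed by 0.28. Daglb, a diacylglycerol lipase that supplies arachidonate by another route, had means of 9.55 ± 1.60 and 23.0 ± 6.85 CPM (SD, n = 3 each) and rose by DESeq2 (log2 fold change 1.25, adjusted p = 0.00763), but differed by -0.98 in the F pair. Ptger4, a receptor for prostaglandin E2, was at 36.6, 25.6 and 23.2 CPM in M_WT_5643, M_WT_6258 and M_WT_6255 and at 86.8, 245.4 and 36.2 CPM in M_KO_5944, M_KO_5645 and M_KO_5642. Its DESeq2 call (log2 fold change 2.10, adjusted p = 0.0310) came with groups that overlapped, since M_KO_5642 lay below M_WT_5643. Ptger2, another prostaglandin E2 receptor, was lower without overlap, with means of 53.8 ± 6.01 and 40.6 ± 5.96 CPM (SD, n = 3 each, edgeR log2 fold change -0.41, adjusted p = 0.460).

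Among genes of leukotriene export, conversion and breakdown, 5 of 7 tested were higher in M_KO. Dpep3, a dipeptidase of the family that trims cysteinyl leukotrienes, had an edgeR log2 fold change of 0.90 (adjusted p = 0.412) without overlap. The cytochrome P450 genes Cyp4f13 (0.89) and Cyp4f16 (0.54), of a family that hydroxylates leukotriene B4, were higher without overlap too, with edgeR adjusted p of 0.412 and 0.420. The other prostanoid synthases had a median of 0.01 over 7 tested genes, and Cbr1 alone among them differed without overlap (0.36, edgeR adjusted p = 0.593). Ptgis, prostacyclin synthase, was at 41.8 CPM in M_KO_5642 and 110.0 to 454.5 CPM in the other 7 libraries, as Alox15 was lowest there. In the remaining lists, Ptgr2, a prostaglandin reductase (0.52), Dagla, a diacylglycerol lipase (1.0), and the P450 gene Cyp2j9 (2.31, at 0.05 to 0.92 CPM) were higher without overlap, and Acsl4, an arachidonate-activating ligase, was lower (-0.35), with edgeR adjusted p of 0.412 to 0.489. None of the 5 other lipoxygenase genes, Alox12 among them, passed the filter, and their summed level was at most 0.652 CPM.

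**Figure D5:**
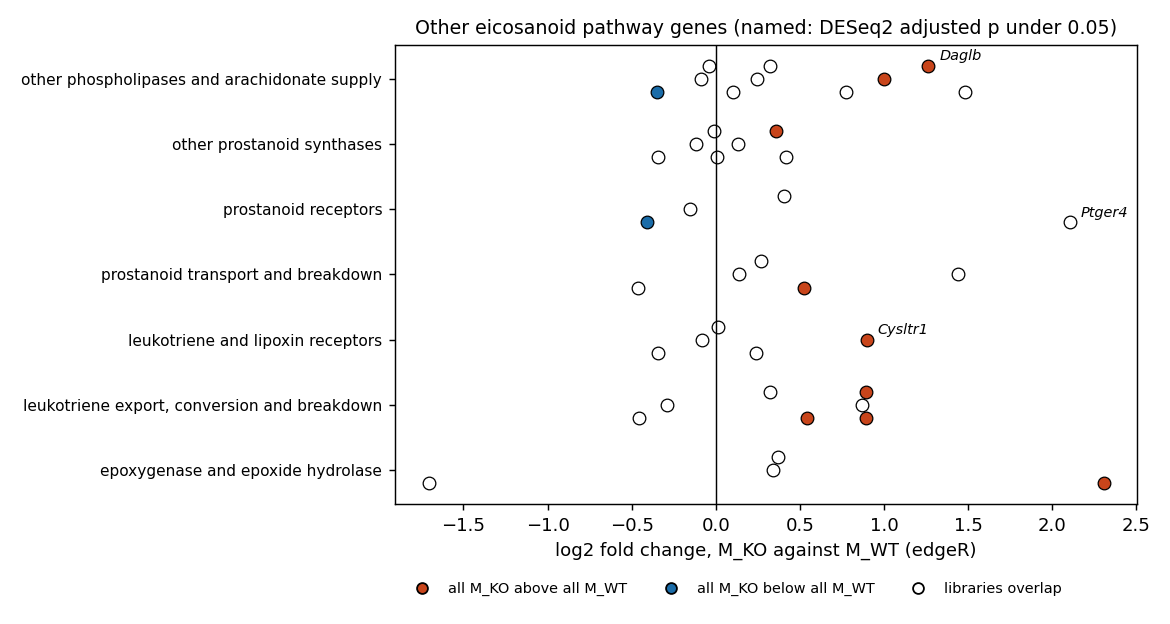
EdgeR log2 fold change of M_KO against M_WT (x axis) for 42 other genes of eicosanoid metabolism, by list (y axis), with 1 point per gene. Filled points mark genes whose M libraries do not overlap, 9 higher and 2 lower, and the 3 named genes passed the DESeq2 threshold.

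The genes whose log2 CPM followed a member most closely over the 8 libraries are given as a description, picked from 8269 protein-coding genes with a mean log2 CPM of at least 3. For Ptgs2 these were Csrnp1 (Pearson r = 0.991) and Chsy3 (0.972), and for Ptges Bdp1 (0.977) and Ammecr1l (0.963). Hpgds was followed by Vapa (0.987) and Mapk6 (0.970), Pla2g4a by Tanc1 (0.980) and Hectd2 (0.972), and Alox15 by Slc22a17 (0.982) and Myo6 (0.975). Arsa was among the nearest genes of both Ptgs1 (0.933, after B3glct at 0.966) and Alox5 (0.928, after Smpdl3b at 0.930). Aldh3b1 was likewise shared by Alox5ap (0.960, with S100a13 at 0.955) and Lta4h (0.973, with Itsn2 at 0.974), while Slc6a6 (0.963) and Snapc5 (0.954) were nearest to Ltc4s. Each r is the highest or next highest of 8269 over 8 libraries that share the TMM scaling, and has no test.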

How the data were processed

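Counts per gene were deposited by the authors without normalization. Among tools, HISAT2 2.0.5, DESeq2 1.16.1 and featureCounts 1.5.0-p3 are listed, and as builds mm10 and GRCm38, per the submitters' processing notes. No source used here gives the strand setting, how multi-mapping reads were handled or the annotation release. The deposited FPKM values scale counts by gene length and library size. In the authors' deposited comparison table the per-library values are a signal normalized by the authors, the fold changes are log2, and p-values and adjusted p-values come with them. 0 value columns were without a sample.

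The 6 M libraries were compared with edgeR 4.0.16 in R 4.3.3 (quasi-likelihood test, TMM scaling, default expression filter on genotype, 13646 genes; 4 degrees of freedom were left and the biological coefficient of variation was 0.300), with Benjamini-Hochberg adjustment over all genes and a threshold of 0.05. Models over all 8 libraries had genotype and letter, or their interaction, as terms. Standard errors were derived from the F statistic. CPM values use TMM over 8 libraries, and log2 CPM a prior count of 2. The test was tried on simulated counts. Titles number the animals separately, and the numbers pair no libraries.

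Alternatives were DESeq2 1.42.0, limma 3.58.1 (voom, and log2(FPKM + 1) or log2(FPKM + 0.1)), scaling by upper quartile or RLE, at least 1 CPM in 3 libraries or no filter, the legacy dispersion estimate, all 8 libraries, a prior count of 0.5, and leaving out each library or member. Leave-outs in the 8-library models and with DESeq2 were added after the data were seen. Counting intervals are 95% exact Clopper-Pearson and, like the floor of 3 counts, cover counting error only. The members, branches and gene lists were chosen with earlier results of these data known. Text names all members, pathway genes called by edgeR or DESeq2, up to 3 per list with the largest fold change among genes without overlap, and the 2 genes most like each member. Other genes (Pla2g4a's neighbours, Ptgis, and markers) were chosen after their values were seen. RefSeq promoter windows were searched for motifs chosen with the results known.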

Additional observations from a re-analysis of the deposited data

Results flagged for a closer look

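For 4 members whose M libraries did not overlap, the F pair differed in the other direction. F_KO minus F_WT was log2 0.90 for Ptgs2, 0.54 for Ptges and 0.11 for Pla2g4a, where M_KO was lower than M_WT, and -0.58 for Lta4h, where M_KO was higher. The interaction of genotype and letter did not pass the threshold for any of them (edgeR adjusted p = 0.948 for each), and F has a single library of each genotype, so replicate spread in that test comes from M alone. For Ptgs2, Ptges and Pla2g4a the F_WT library was lower than every M_WT library, at 167.9, 238.2 and 253.1 CPM. Men1 was at 11.7 CPM in F_KO, above every M_KO library (6.45 to 8.42 CPM). Its part in these differences was not tested.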

How the results depend on the processing

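No member was called in the M comparison under any of the 16 alternatives, and the direction of Ptgs1, Ptgs2, Ptges, Hpgds, Pla2g4a, Alox5ap and Lta4h was the same in all of them. Alox15 turned positive over all 8 libraries (0.14), without M_WT_5643 (0.04) and without M_KO_5642 (0.40), Ltc4s turned negative over all 8 libraries (-0.18) and without M_KO_5642, and Alox5 turned positive without M_WT_6258. Without 1 library, the log2 fold change ran from -0.31 to 0.010 for Alox5, from -0.58 to 0.40 for Alox15 and from -0.094 to 0.33 for Ltc4s. Over all 8 libraries Ptgs2 went from -1.81 to -1.20. The contrast between branches, 1.22, was 0.88 over all 8 libraries, 1.55 without Ptgs1 and 0.94 without Ptgs2. The cause was not tested. With DESeq2 and 1 library left out, which was added later, Hpgds was called without M_WT_5643 (adjusted p = 0.0107), Ptges and Pla2g4a without M_KO_5944 (0.00524 and 3.33e-05), and Ptgs2 without M_KO_5645 (0.0431) or M_KO_5642 (0.0316). No member was called that way without M_WT_6258 or M_WT_6255. The share of all genes called in each of these DESeq2 leave-outs was not computed, so the calls have no background and are no result about these members.

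The number of genes called was 3 with edgeR, 188 with DESeq2 and 1 over all 8 libraries, and 0 to 17 without 1 library. In the genotype model over all 8 libraries it was 1, and 0 to 4 without 1 library. For the interaction it was 3, and 0 to 6 without 1 M library. No paired analysis was possible because the groups share no animal number. Depth limits Hpgds most, with 43 to 199 counts per library.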
